A study of Mus musculus with 4 samples.

Results

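The BCL2 family sets whether the outer membrane of the mitochondrion stays intact, and this account follows 10 of its genes, found by symbol among 32285 genes in each deposited matrix, through thymic invariant natural killer T (iNKT) cells. The 10 are the guardians Bcl2, Bcl2l1, Mcl1, Bcl2a1b and Bcl2a1d, the effectors Bax and Bak1, and the BH3-only genes Bcl2l11, Bad and Pmaip1. All 10 had UMIs in every library. The data were single-cell RNA libraries made with a 10x Genomics 5' kit from live-sorted thymus cells that carried CD3 and bound CD1d tetramer loaded with PBS57, an analogue of the iNKT ligand. There were 2 libraries from BALB/c mice and 2 from B6 mice, both labelled by strain alone. No treatment, transgene or deletion is named for either strain, and the number, age and sex of the animals behind each library are not given in the sources used here.

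Guardian proteins such as BCL2, BCL-XL (from Bcl2l1), MCL1 and A1 (from the Bcl2a1 genes) hold the effectors BAX and BAK in check. Freed effectors make pores in the mitochondrial outer membrane, cytochrome c escapes, and caspases are set off. BH3-only proteins such as BIM (from Bcl2l11), BAD and NOXA (from Pmaip1) bind the guardians and so take part in starting the process. In the thymus, BCL-XL is known as the main guardian of double-positive thymocytes, BCL2 is made again in mature T cells under interleukin-7 signalling, and BIM is used to delete self-reactive thymocytes. iNKT cells pass from double-positive thymocytes through a precursor called iNKT0 into functional subsets, of which iNKT17 make interleukin-17, iNKT2 interleukin-4 and iNKT1 interferon-gamma.

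The files held 2038 and 2056 barcodes for the BALB/c libraries and 2494 and 9732 for the B6 libraries, of which 14895 cells passed the filters. Median depth in kept cells was 11003.5 and 9131 UMIs in BALB/c, against 7016 and 6922.5 UMIs in B6. Clusters were named from marker genes, none of them a member, and gave 729 iNKT17-like, 3208 iNKT2-like, 5711 iNKT1-like, 433 iNKT0-like and 779 double-positive thymocyte-like cells. The naming used the lists that follow, so their levels are a description. The iNKT17 list summed to between 2634 and 2766 CPM (counts per 1e6 UMIs of the cells summed) in iNKT17-like cells of the 4 libraries, and the double-positive list to between 9139 and 13064 CPM in double-positive thymocyte-like cells. Of the BALB/c iNKT2-like cells, 87.8% came from 1 cluster, which held 5.18% of the B6 iNKT2-like cells, and 58.0% of the B6 ones came from another. That BALB/c cluster had a mean log2 fold of 0.91 over the iNKT2 list and 1.09 over a gamma-delta T cell list, which was left out of naming after the data were seen. Of the BALB/c iNKT1-like cells, 91.9% came from 1 cluster, while those of B6 were spread over 4 others, with 1171 of 1423 in 1 of them in the first B6 library and at most 1206 of 3404 in any 1 in the second. The second B6 library stood apart. Its header names Cell Ranger 7.1.0, against 6.0.0 in the other 3, 30.6% of its kept cells lay in clusters without a name, and in iNKT1-like cells the genes with the most intronic bases (the top one of 4 equal groups) had a median 0.40 higher on the log2 scale in it than in the first B6 library. Strain differences are therefore given with and without single libraries. Pairs of libraries shared between 4 and 33 barcode sequences.

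The family was divided between the iNKT subsets. Bcl2 and Bcl2l11 were high in iNKT1-like cells and low in iNKT2-like and iNKT17-like cells, while the Bcl2a1 genes, Bax and Bak1 ran the other way, and Bcl2l1 stood out in double-positive thymocytes. These directions were tested on cells grouped by a score over the marker genes, since the members had no part in that score, with edgeR's quasi-likelihood test on UMIs summed per library and class and the library as a block. The fits covered all genes, and a gene was called at an adjusted p under 0.05. For iNKT2 over iNKT1, 8 of 10 members were called, 4 higher and 4 lower, where 44.3% of all genes tested were called, 22.1% higher and 22.2% lower. For iNKT17 over iNKT1, 5 of 9 tested members were higher and 3 lower, where 35.7% of all genes were called, 17.5% higher and 18.2% lower. For iNKT17 over iNKT2, 5 of 9 were higher and 1 lower, where 31.2% of all genes were called, 15.3% higher and 15.9% lower. For mature iNKT cells (the 3 subsets summed) over double-positive thymocytes, 5 of 9 were higher and 3 lower, where 54.3% of all genes were called, 29.5% higher and 24.8% lower. Pmaip1 passed the filter on low counts in 1 of the 4 class comparisons, iNKT2 over iNKT1, and was not called there.

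**Figure D1:**
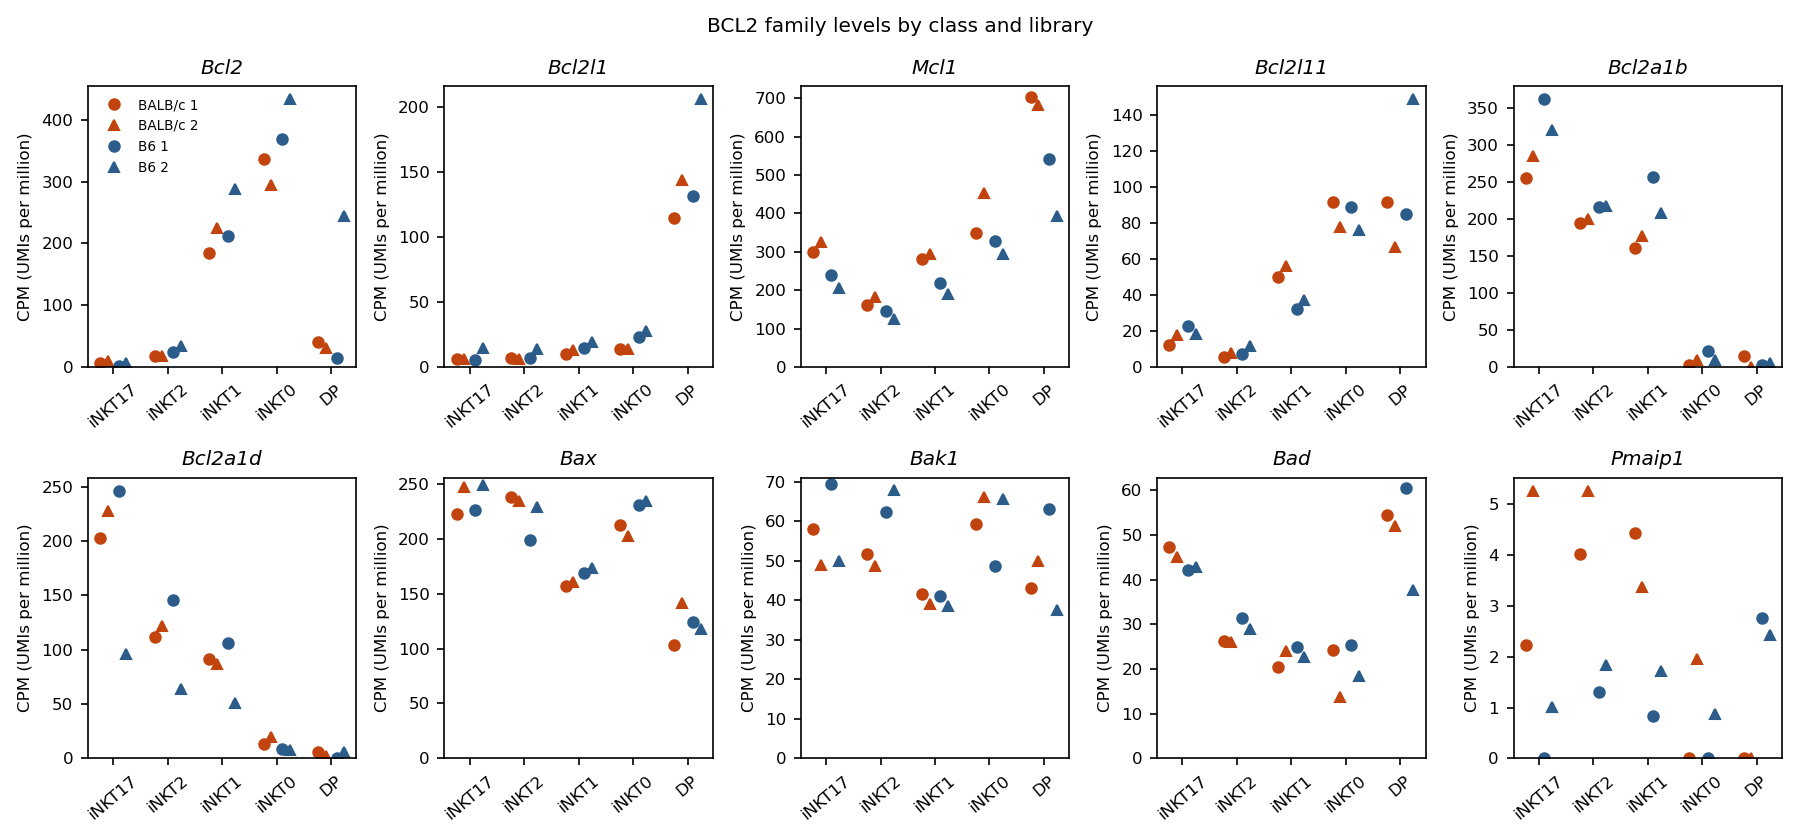
Level of each member in CPM in 5 classes of cells named from clusters, with 1 point per library. Bcl2 is highest in iNKT0-like and iNKT1-like cells and lowest in iNKT17-like cells, Bcl2l1 is highest in double-positive thymocyte-like cells, and the Bcl2a1 genes are near 0 there.

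Among the guardians, Bcl2 (chr1:106538178-106714274, minus strand, GRCm38) had the widest spread between subsets. In cells scored as iNKT17 it stood at 5.86 and 9.78 CPM in BALB/c and at 1.25 and 11.7 CPM in B6. In cells scored as iNKT2 it stood at 21.1 and 18.1 CPM in BALB/c and at 36.3 and 51.4 CPM in B6. In cells scored as iNKT1 it stood at 229 and 269 CPM in BALB/c and at 282 and 338 CPM in B6. No value of one subset reached the values of another. On the log2 scale Bcl2 fell by 5.23 (SE 0.17, edgeR adjusted p = 5.38e-09) in iNKT17 against iNKT1, by 3.22 (SE 0.17, edgeR adjusted p = 7.14e-06) in iNKT2 against iNKT1, and by 2.00 (SE 0.25, edgeR adjusted p = 7.31e-05) in iNKT17 against iNKT2, in 4 of 4 libraries each time. Over clusters the order from the bottom was iNKT17-like at 5.45 ± 3.31 CPM, iNKT2-like at 23.4 ± 7.13, double-positive thymocyte-like at 82.2 ± 108, iNKT1-like at 227 ± 43.4 and iNKT0-like at 358 ± 58.5 (SD, n = 4 libraries). Only the neighbours iNKT1-like and double-positive thymocyte-like, and double-positive thymocyte-like and iNKT2-like, overlapped in their libraries.

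Counting cells gave the same picture of Bcl2. With each cell thinned to 3000 UMIs, the share of iNKT17-like cells with a Bcl2 UMI was 1.91% and 2.75% in BALB/c, against 0% and 0.633% in B6. Of iNKT2-like cells it was 3.74% and 4.67% in BALB/c, against 7.85% and 8.92% in B6, and of iNKT1-like cells 38.4% and 44.7% in BALB/c, against 41.5% and 48.7% in B6. The highest upper limit of the exact 95% binomial interval was 6.29% in iNKT17-like cells and the lowest lower limit 32.5% in iNKT1-like cells, so the 2 classes stood far apart at equal depth. Without thinning the shares were 5.35% and 8.74% (BALB/c) and 1.49% and 6.83% (B6) in iNKT17-like cells, against 54.3% and 63.7% (BALB/c) and 62.5% and 68.5% (B6) in iNKT1-like cells. The unthinned median depths were 10651.5 to 12115 UMIs in iNKT17-like cells and 6491 to 7180 in iNKT1-like cells, so the class with less Bcl2 was the deeper one. No class in the sort is known to lack Bcl2 RNA, so no separate background share could be measured, and free RNA may add to the iNKT17-like share. Intervals here cover counting error only.

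Bcl2l1, the gene of BCL-XL, had its highest level in double-positive thymocytes in every library. Cells scored as iNKT17 held 4.10 and 5.38 CPM in BALB/c and 5.01 and 14.6 CPM in B6. Cells scored as iNKT1 held 11.3 and 14.0 CPM in BALB/c and 14.5 and 20.1 CPM in B6, while cells scored as double-positive held 123 and 134 CPM in BALB/c and 126 and 202 CPM in B6. Bcl2l1 was lower in mature iNKT cells than in double-positive thymocytes by 3.30 on the log2 scale, as a log2 fold change of -3.30 (SE 0.18, edgeR adjusted p = 2.73e-09), with no overlap between the 8 sums. It was also lower in iNKT2 (log2 change -0.93, SE 0.16, edgeR adjusted p = 0.00188) and in iNKT17 (log2 change -1.09, SE 0.25, edgeR adjusted p = 0.00639) than in iNKT1. Between iNKT17 and iNKT2 the log2 change was -0.20 (SE 0.24, edgeR adjusted p = 0.635). The second B6 library had the highest Bcl2l1 of the 4 in each of these classes.

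Mcl1, whose protein is made and broken down quickly, was present in every class and differed less between them. Over clusters it averaged 153.8 ± 23.8 CPM in iNKT2-like cells, 246 ± 50.2 CPM in iNKT1-like cells and 580 ± 144 CPM in double-positive thymocyte-like cells (SD, n = 4 libraries). Mature iNKT cells were lower than double-positive thymocytes by the score (log2 change -0.84, SE 0.13, edgeR adjusted p = 7.68e-05). iNKT2 was lower than iNKT1 (log2 change -0.64, SE 0.09, edgeR adjusted p = 0.000731), and iNKT17 was higher than iNKT2 (log2 change 0.66, SE 0.07, edgeR adjusted p = 2.87e-05). Mcl1 was not called between iNKT17 and iNKT1, where both averaged about the same normalised level, 264 ± 63.5 CPM in iNKT17 and 266 ± 71.4 CPM in iNKT1 (SD, n = 4, edgeR adjusted p = 0.984).

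The Bcl2a1 genes encode A1, a guardian known from activated lymphocytes and myeloid cells, and mice carry several near-identical copies on chromosome 9. The stretches just upstream of the annotated starts of Bcl2a1b, Bcl2a1d and a further copy, Bcl2a1a, are shown for how alike the copies are. Since they lie before those starts, how far reads can be told apart rests on the transcripts instead. The stretches are from RefSeq on GRCm38.p6, written 5′ to 3′ along each gene's own strand. Capitals mark bases that differ between Bcl2a1b and Bcl2a1d or are present in Bcl2a1b alone, and in Bcl2a1a the base that differs from Bcl2a1b.
Bcl2a1b, chr9:89199023-89199208, plus strand: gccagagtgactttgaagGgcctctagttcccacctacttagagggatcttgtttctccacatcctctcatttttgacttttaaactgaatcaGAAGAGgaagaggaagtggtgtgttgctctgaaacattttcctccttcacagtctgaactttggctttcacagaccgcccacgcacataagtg
Bcl2a1d, chr9:88731915-88732100, minus strand: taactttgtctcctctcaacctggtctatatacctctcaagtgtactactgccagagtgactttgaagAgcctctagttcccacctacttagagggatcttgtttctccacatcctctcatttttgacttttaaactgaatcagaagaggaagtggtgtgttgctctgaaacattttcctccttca
Bcl2a1a, chr9:88956670-88956899, plus strand: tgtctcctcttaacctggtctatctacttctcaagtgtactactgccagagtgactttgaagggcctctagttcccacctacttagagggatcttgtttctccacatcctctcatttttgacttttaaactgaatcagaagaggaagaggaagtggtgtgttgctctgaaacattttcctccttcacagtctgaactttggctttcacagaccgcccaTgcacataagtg
Where the stretches align, Bcl2a1d matched Bcl2a1b at 135 of 136 bases, with 6 bases present in Bcl2a1b alone, and Bcl2a1a matched Bcl2a1b at 185 of 186. The GENCODE vM21 transcripts of the copies were close too. Of 817 aligned bases, 810 were the same between Bcl2a1d and Bcl2a1b (99.1%) and 802 between Bcl2a1a and Bcl2a1b (98.2%). Against Bcl2a1b, a further 46 bases were present in the Bcl2a1d transcript alone and 2 in that of Bcl2a1a alone. Counting may therefore divide reads between the copies, and their separate levels are uncertain.

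With that limit, both copies were high in all 3 mature subsets and close to 0 earlier. Bcl2a1b over clusters was 306 ± 46.0 CPM in iNKT17-like, 208 ± 11.8 in iNKT2-like and 201 ± 42.4 in iNKT1-like cells, against 10.8 ± 7.65 in iNKT0-like and 5.49 ± 6.23 in double-positive thymocyte-like cells (SD, n = 4 libraries). In double-positive thymocyte-like cells 1 BALB/c library had no Bcl2a1b UMI at all. By the score, mature iNKT cells exceeded double-positive thymocytes by 5.06 on the log2 scale for Bcl2a1b (SE 0.24, edgeR adjusted p = 6.68e-10) and by 5.43 for Bcl2a1d (SE 0.28, edgeR adjusted p = 1.54e-09).

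Within the mature subsets, iNKT17 led for both copies. Bcl2a1d in cells scored as iNKT17 was 199 and 236 CPM in BALB/c and 248 and 95.2 CPM in B6. In cells scored as iNKT1 it was 68.0 and 63.0 CPM in BALB/c and 79.4 and 43.5 CPM in B6. iNKT17 was above iNKT1 in each library, with a log2 change of 1.45 for Bcl2a1d (SE 0.12, edgeR adjusted p = 3.51e-06) and 0.82 for Bcl2a1b (SE 0.07, edgeR adjusted p = 7.64e-06). It was also above iNKT2, by 0.76 for Bcl2a1d (edgeR adjusted p = 5.09e-06) and 0.30 for Bcl2a1b (edgeR adjusted p = 0.00839), and the Bcl2a1b call was lost without the second B6 library (log2 change 0.23, edgeR adjusted p = 0.0504). iNKT2 was above iNKT1 by 0.52 for Bcl2a1b and 0.68 for Bcl2a1d (edgeR adjusted p = 0.00228 and 0.00181). With the classes taken from clusters the Bcl2a1b change between iNKT2 and iNKT1 was 0.04 (edgeR adjusted p = 0.742), so that difference depended on how cells were grouped.

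The 2 copies did not keep 1 ratio. In iNKT17-like cells there were 0.793 and 0.796 Bcl2a1d UMIs per Bcl2a1b UMI in BALB/c, and 0.679 and 0.2995 in B6. In iNKT1-like cells the ratio was 0.565 and 0.490 in BALB/c, against 0.412 and 0.246 in B6. The second B6 library was the lowest in every mature subset, and its Bcl2a1d was 1.03 lower on the log2 scale than in the first B6 library in iNKT1-like cells and 1.19 lower in iNKT2-like cells. The ratio was higher in iNKT17-like than in iNKT1-like cells within each library.

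Both effectors were more abundant, as a share of RNA, in iNKT17 and iNKT2 than in iNKT1. Bax, the effector that moves to mitochondria on activation, was 224 and 244 CPM (BALB/c) and 228 and 243 CPM (B6) in cells scored as iNKT17. It was 247 and 247 CPM (BALB/c) and 216 and 235 CPM (B6) in cells scored as iNKT2, and 151 and 163 CPM (BALB/c) and 168 and 182 CPM (B6) in cells scored as iNKT1. The iNKT1 values lay below all values of the other 2 subsets, with log2 changes of 0.40 (SE 0.07, edgeR adjusted p = 0.00102) for iNKT17 and 0.51 (SE 0.09, edgeR adjusted p = 0.00203) for iNKT2 over iNKT1. Bak1, the effector that sits in the mitochondrial membrane, rose by 0.42 in iNKT17 (SE 0.12, edgeR adjusted p = 0.0161) and by 0.49 in iNKT2 (SE 0.09, edgeR adjusted p = 0.00339) over iNKT1. Without the first B6 library the Bak1 change for iNKT17 was 0.33 (edgeR adjusted p = 0.0762). Against double-positive thymocytes, mature iNKT cells had more Bax (log2 change 1.22, SE 0.14, edgeR adjusted p = 4.72e-06) and more Bak1 (0.52, SE 0.18, edgeR adjusted p = 0.0219). The Bak1 call against double-positive thymocytes was lost without the first BALB/c library (0.43, edgeR adjusted p = 0.0684), without the second (0.52, edgeR adjusted p = 0.0601) and without the second B6 library (0.50, edgeR adjusted p = 0.0917).

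Of the BH3-only genes, Bcl2l11 was, like Bcl2, highest in iNKT1 among the mature subsets. Unlike Bcl2, it was higher in iNKT17 than in iNKT2 and lower in mature iNKT cells than in double-positive thymocytes. This gene of BIM (chr2:128126038-128162547, plus strand, GRCm38) was at 12.3 and 17.1 CPM in BALB/c and 25.03 and 18.5 CPM in B6 in cells scored as iNKT17. In cells scored as iNKT2 it was 5.16 and 7.49 CPM in BALB/c and 10.7 and 11.4 CPM in B6, and in cells scored as iNKT1 56.6 and 64.8 CPM in BALB/c and 33.6 and 37.4 CPM in B6. iNKT1 was above both other subsets without overlap, and iNKT17 was above iNKT2 without overlap. The log2 change was -2.40 for iNKT2 over iNKT1 (SE 0.28, edgeR adjusted p = 0.000315), -1.58 for iNKT17 over iNKT1 (SE 0.24, edgeR adjusted p = 0.00048) and 0.95 for iNKT17 over iNKT2 (SE 0.18, edgeR adjusted p = 0.00173). Mature iNKT cells were lower than double-positive thymocytes (log2 change -0.92, SE 0.24, edgeR adjusted p = 0.00407).

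Bcl2 UMIs were also set against those of Bcl2l11 in the same cells. iNKT17-like cells had 0.477 and 0.525 Bcl2 UMIs per Bcl2l11 UMI in BALB/c and 0.306 in the second B6 library, and the first B6 library held 1 Bcl2 UMI against 20 of Bcl2l11. Bcl2 UMIs were the fewer in all 4 libraries. In iNKT2-like cells there were 3.12 and 2.35 in BALB/c, against 3.44 and 2.86 in B6, and in iNKT1-like cells 3.71 and 3.99 in BALB/c, against 6.57 and 7.71 in B6. The ratio was lower in iNKT17-like cells than in either other mature subset in every library. In double-positive thymocyte-like cells it was 0.438 and 0.469 in BALB/c, against 0.161 and 1.63 in B6, so that class overlapped with iNKT17-like cells. The ratio compares UMIs of 2 genes in the same cells rather than their levels per length.

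**Figure D2:**
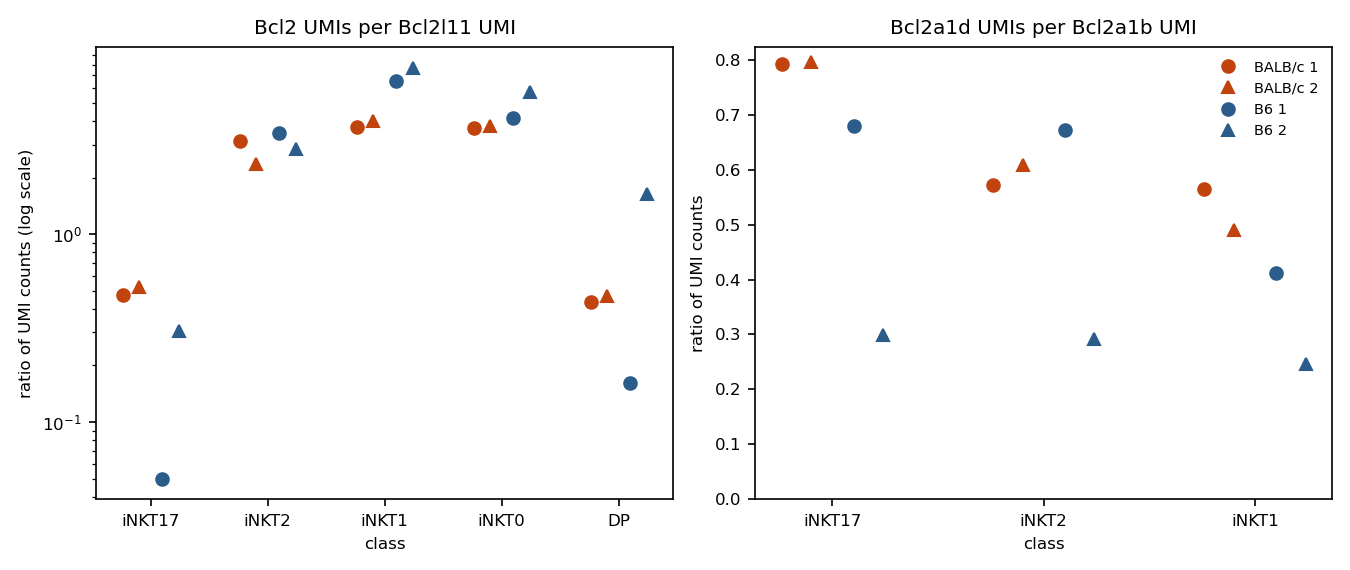
UMIs of Bcl2 per UMI of Bcl2l11 and of Bcl2a1d per UMI of Bcl2a1b by class, with 1 point per library. Bcl2 per Bcl2l11 is below 1 in iNKT17-like cells of all 4 libraries and between 2.35 and 7.71 in iNKT2-like and iNKT1-like cells, and the second B6 library has the lowest Bcl2a1d per Bcl2a1b in the 3 mature subsets.

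Bad, whose protein is kept inactive by phosphorylation under survival signals, was highest in iNKT17-like cells, at 44.3 ± 2.31 CPM, and in double-positive thymocyte-like cells, at 51.2 ± 9.70 CPM (SD, n = 4 libraries), and these 2 classes overlapped. In cells scored as iNKT17 it was above iNKT1 by 0.89 (SE 0.12, edgeR adjusted p = 0.000222) and above iNKT2 by 0.76 (SE 0.11, edgeR adjusted p = 0.000161) on the log2 scale. iNKT2 over iNKT1 gave 0.18 (SE 0.10, edgeR adjusted p = 0.178). Pmaip1, the gene of NOXA, was rare, with 82 and 104 UMIs over all kept cells of the BALB/c libraries and 27 and 117 in those of the B6 libraries. Its log2 change between iNKT2 and iNKT1 was -0.07 (SE 0.31, edgeR adjusted p = 0.958).

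CPM is a share of the RNA counted, and the classes differed in depth. Median UMIs per cell were 10651.5 to 12115 in iNKT17-like cells, 14642 to 18071.5 in iNKT2-like, 6491 to 7180 in iNKT1-like and 1998.5 to 2787.5 in double-positive thymocyte-like cells. Counted per cell, Bcl2 kept its order among the mature subsets, with 0.0660 ± 0.0408 UMIs in iNKT17-like, 0.401 ± 0.124 in iNKT2-like and 1.60 ± 0.354 in iNKT1-like cells (SD, n = 4 libraries). So did Bcl2l11, with 0.220 ± 0.0654 UMIs per cell in iNKT17-like, 0.137 ± 0.0385 in iNKT2-like and 0.305 ± 0.0654 in iNKT1-like cells, though some of these libraries overlapped. Other orders turned round. Mcl1 had 3.28 ± 0.639 UMIs per cell in iNKT17-like, 2.63 ± 0.470 in iNKT2-like and 1.71 ± 0.284 in iNKT1-like cells, against 1.46 ± 0.357 in double-positive thymocyte-like cells, though its CPM was lower in iNKT2 than in iNKT1 and in mature iNKT than in double-positive cells. Bad, whose CPM overlapped between iNKT17-like and double-positive thymocyte-like cells, was 0.542 ± 0.0188 UMIs per cell in iNKT17-like and 0.128 ± 0.0196 in double-positive thymocyte-like cells. It was 0.486 ± 0.0979 in iNKT2-like cells, which overlapped with iNKT17-like cells, and 0.162 ± 0.0228 in iNKT1-like cells. The Bcl2a1 genes overlapped between iNKT17-like and iNKT2-like cells too. In that order Bcl2a1b had 3.78 ± 0.777 and 3.57 ± 0.553 UMIs per cell, and Bcl2a1d 2.38 ± 0.892 and 1.94 ± 0.792. Bax stood further apart per cell, at 3.83 ± 0.150 in iNKT2-like against 1.16 ± 0.118 in iNKT1-like cells. Of the 5 classes Bcl2l1 remained highest in double-positive thymocyte-like cells, at 0.386 ± 0.146 UMIs per cell, while cells of proliferating clusters, outside the 5, had 0.448 ± 0.0551. Per cell Bcl2l1 was 0.0986 ± 0.0503 in iNKT17-like, 0.144 ± 0.0551 in iNKT2-like and 0.0988 ± 0.0300 in iNKT1-like cells, so its lower CPM in iNKT2 and iNKT17 than in iNKT1 was not seen per cell. Whether depth per cell reflects RNA content or capture was not tested.

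**Figure D3:**
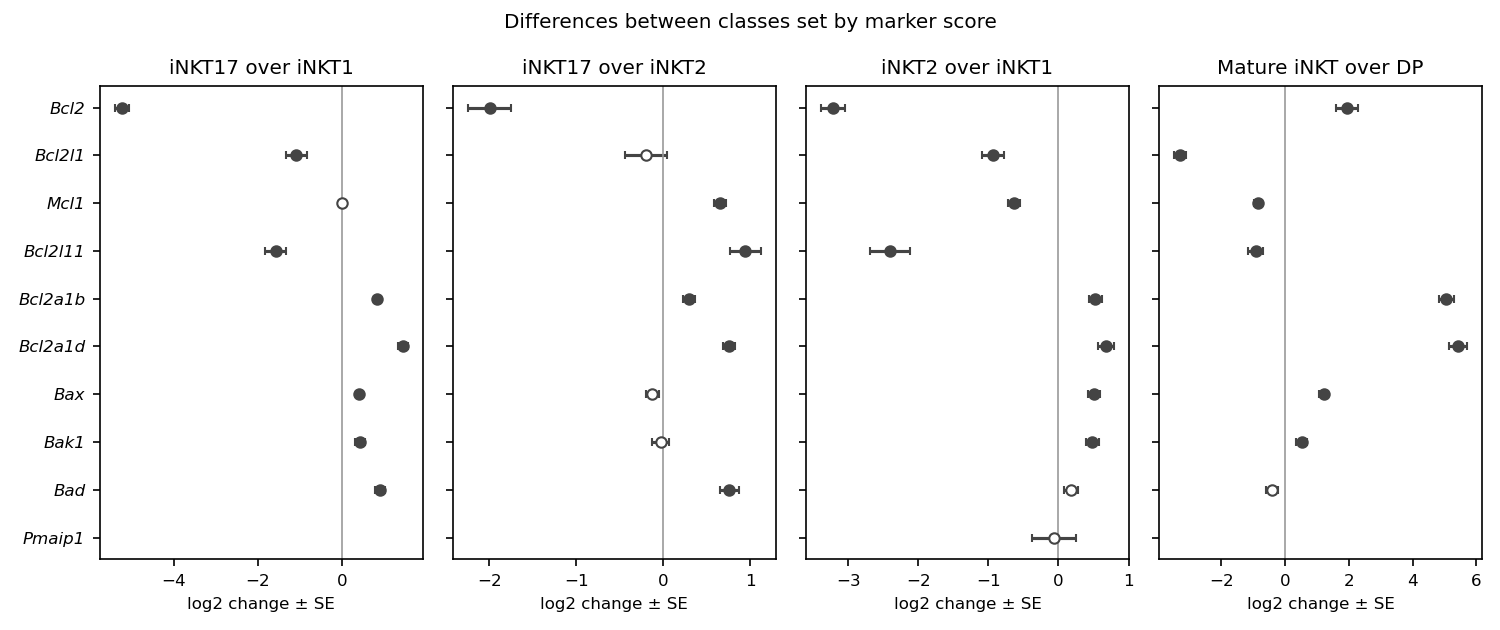
Log2 change of each member in 4 comparisons between classes of cells grouped by marker score (iNKT2 over iNKT1, iNKT17 over iNKT1, iNKT17 over iNKT2, mature iNKT over double-positive thymocytes), with bars of 1 SE and filled points for members called by edgeR. Bcl2 has the largest fall among the subsets, at -5.23 for iNKT17 over iNKT1, and the Bcl2a1 genes the largest rises over double-positive thymocytes, at 5.06 and 5.43.

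The rest of the pathway was read from 5 lists of related genes. Among 15 other BCL2 family genes, 7 were tested for iNKT2 over iNKT1. Where 44.3% of all genes were called, 1 of the 7 was. That was Bbc3, the gene of the BH3-only protein PUMA, at 21.4 ± 4.09 CPM in iNKT2 and 77.2 ± 30.9 CPM in iNKT1 (log2 change -1.70, SE 0.28, edgeR adjusted p = 0.00179). For iNKT17 over iNKT1, 5 of 8 were called, 3 higher and 2 lower, where 35.7% of all genes were called. Bbc3 was again lower (-2.31, edgeR adjusted p = 6.13e-06). Bik, another BH3-only gene, was 44.4 ± 16.4 CPM in iNKT17 and 7.39 ± 1.19 CPM in iNKT1 (log2 change 2.53, SE 0.17, edgeR adjusted p = 9.55e-07), and it exceeded iNKT2 by 3.07 (edgeR adjusted p = 1.33e-07). The BH3-only gene Bmf fell in mature iNKT cells to 0.390 ± 0.337 CPM, against 15.9 ± 10.9 CPM in double-positive thymocytes (log2 change -5.22, SE 0.51, edgeR adjusted p = 8.48e-07). There 2 of 8 tested genes of the list were called, the other being Bik, which was higher. Of all genes, 54.3% were called in that comparison.

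Downstream genes changed in both directions, as did genes at large. Of 15 apoptosome and caspase genes, 4 were higher and 5 lower in iNKT2 than in iNKT1. Of all genes, 22.1% were higher and 22.2% lower. Cycs, the gene of cytochrome c, was higher (304 ± 50.2 CPM in iNKT2 and 182 ± 7.51 CPM in iNKT1; log2 change 0.72, edgeR adjusted p = 0.000526). It was lower in iNKT17 than in iNKT2 (log2 change -0.76, edgeR adjusted p = 1.98e-05). In mature iNKT cells 4 of the 15 were higher and 3 lower than in double-positive thymocytes. Of all genes, 29.5% were higher and 24.8% lower. Among the 15, the caspase genes Casp6 (-1.48) and Casp2 (-1.38) were both lower.

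Among 13 inhibitor of apoptosis and death receptor genes, Fas, the receptor of Fas ligand, was 29.8 ± 7.57 CPM in mature iNKT cells and 147 ± 3.83 CPM in double-positive thymocytes (log2 change -2.30, SE 0.16, edgeR adjusted p = 2.07e-08), and 3 of 11 tested were higher and 3 lower there. Of all genes, 29.5% were higher and 24.8% lower in that comparison. Between iNKT2 and iNKT1, 2 of 13 were higher and 2 lower, where 22.1% and 22.2% of all genes were. The 13 genes include Fasl and Birc5, which served as markers in the score. Their calls are not read, and the counts were not corrected for them.

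Of 12 survival cytokine genes, 1 was higher and 8 were lower in iNKT2 than in iNKT1, where 22.1% of all genes were higher and 22.2% lower. Il4ra, a chain of the interleukin-4 receptor, was 2.53 ± 1.07 CPM in iNKT2 and 28.4 ± 3.86 CPM in iNKT1 (log2 change -3.37, SE 0.26, edgeR adjusted p = 4.12e-05), and Stat5b, which carries signals of interleukin-2 and interleukin-7, was the higher one (0.89, edgeR adjusted p = 0.000133). Il7r, a chain of the interleukin-7 receptor, was higher in iNKT17 than in iNKT2 (log2 change 1.12, edgeR adjusted p = 1.01e-07) and in mature iNKT cells than in double-positive thymocytes (4.26, edgeR adjusted p = 1.44e-10). The 12 genes include Il2rb, a marker of the iNKT1 score, so its own side was set by the grouping and is not read. Of 12 genes that act on the turnover of MCL1 or the tethering of BIM, 3 of 11 tested were higher and 1 lower in iNKT2 than in iNKT1, including Dynll1, a dynein light chain that binds BIM (0.44, edgeR adjusted p = 0.000813). The shares over all genes there are the 22.1% and 22.2% given above. In iNKT17 against iNKT2, where 31.2% of all genes were called, none of the list was. Its smallest edgeR adjusted p was 0.0507, for Ywhae, a 14-3-3 protein gene.

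Genes that ran most like the members over the 20 sums of library and cluster class are given as a description, since the sums share libraries and depth. Pearson's r of log2 CPM among 3477 genes was highest with Bcl2 for Gimap5 (0.89), Gimap6 (0.87) and Cd69 (0.86). With Bcl2l1 it was highest for Mef2a (0.98), Rnf169 (0.98) and Lbr (0.97), and with Bcl2a1b for Ctss (0.96), Capg (0.96) and Slfn1 (0.95). Of 4 motifs searched on both strands in the 250 bases upstream of RefSeq starts, 9 members had such a window. The NF-kappa B consensus, the ROR motif AGGTCA and the T-box motif TCACACC each occurred in Bcl2l1 alone among them, and the STAT motif TTCNNNGAA in none. Of all 32851 windows, 7.25% held the NF-kappa B consensus, 14.0% AGGTCA, 3.33% TCACACC and 7.02% TTCNNNGAA.

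Between the strains, 1 member passed the test over all kept cells. Pmaip1 was 3.65 and 4.68 CPM in BALB/c, against 1.37 and 1.58 CPM in B6. The strains did not overlap, and the log2 change of BALB/c over B6 was 1.53 (SE 0.27, edgeR adjusted p = 0.0488), which made 1 of 10 members called where 7.28% of all genes were. Bcl2 differed more but missed the threshold, at 36.1 and 63.2 CPM in BALB/c and 147 and 187 CPM in B6 (log2 change -1.71, SE 0.31, edgeR adjusted p = 0.0507). The p-values measure the spread between these libraries, which may be technical. Without the first or the second BALB/c library the Pmaip1 call was lost (edgeR adjusted p = 0.363 and 0.401), and without the first or the second B6 library Bcl2 was called (edgeR adjusted p = 0.0101 and 0.0388).

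The libraries also differed in makeup, and the part of this in the Bcl2 difference over all cells was not tested. iNKT1-like cells, rich in Bcl2, were 280 and 604 of 1864 and 1913 kept cells in BALB/c, against 1423 and 3404 of 2328 and 8790 in B6. iNKT2-like cells were 914 and 731 in BALB/c, against 192 and 1371 in B6. With the 3 mature subsets given equal weight in each library, Bcl2 was 69.6 and 84.2 CPM in BALB/c and 78.8 and 109 CPM in B6, and the groups overlapped (log2 change -0.27, limma adjusted p = 0.496). Under that weighting limma called 0 of 10 members, and 3 had an unadjusted p under 0.05, Mcl1, Bcl2a1b and Pmaip1. The shares of all 11472 genes tested are not given here, so these counts are not read as particular to the members.

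**Figure D4:**
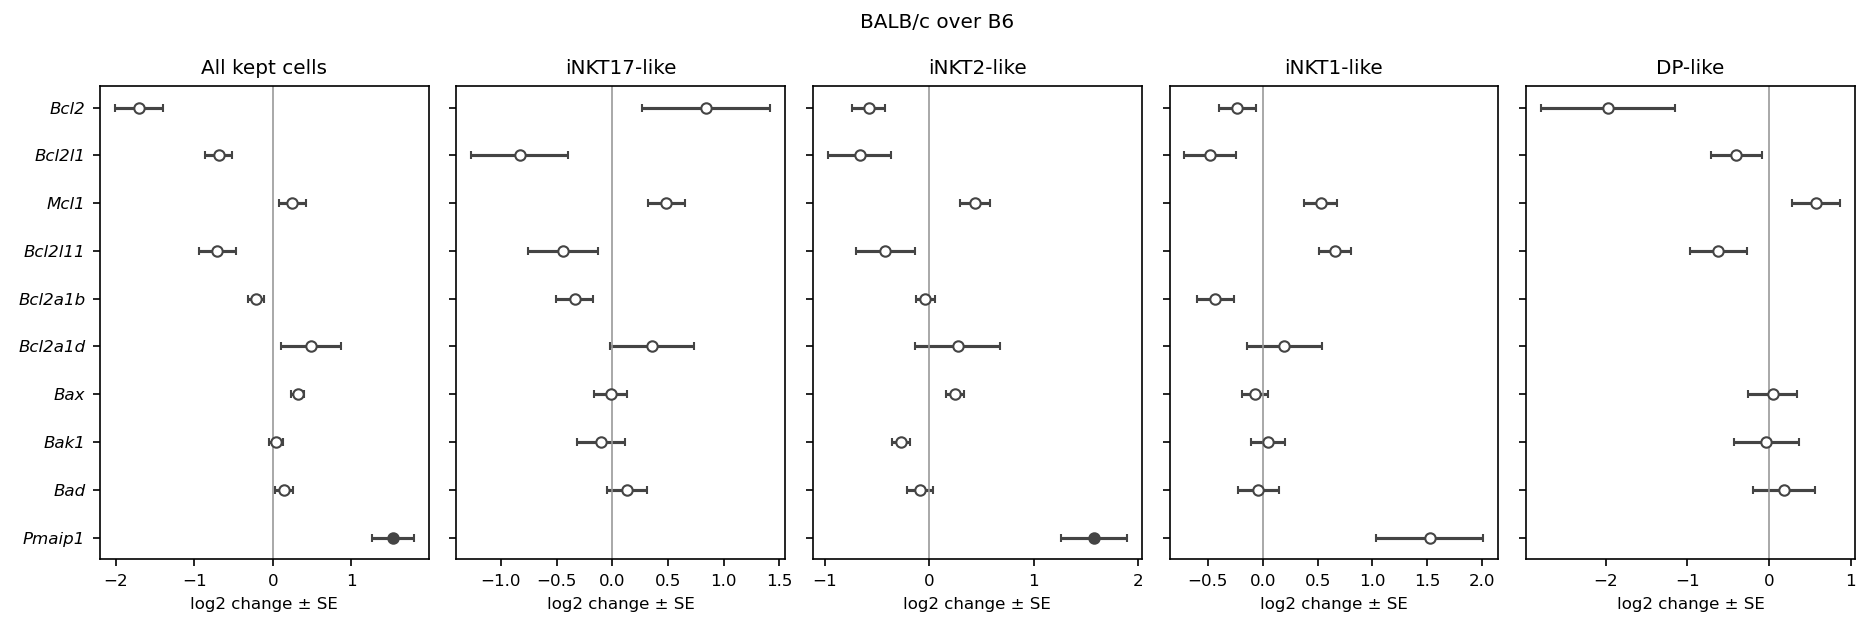
Log2 change of BALB/c over B6 for each member over all kept cells and within 4 classes, with bars of 1 SE and filled points for members called by edgeR. Pmaip1 is called over all kept cells (1.53) and in iNKT2-like cells (1.58), Mcl1 lies above 0 in every class, and Bcl2 lies below 0 except in iNKT17-like cells (0.85, not called, and -0.11 by marker score).

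Within subsets few members differed. In iNKT2-like cells Pmaip1 was again higher in BALB/c. BALB/c had 4.01 and 5.26 CPM and B6 had 1.30 and 1.83 CPM, from 58 and 64 UMIs in BALB/c and 5 and 40 in B6. Its log2 change was 1.58 (SE 0.32, edgeR adjusted p = 0.0487), and 1 of 10 members was called where 7.64% of all genes were. The call was lost without the first (edgeR adjusted p = 0.348) or the second BALB/c library (0.540), and the first B6 library gave 5 of the UMIs behind it. Without the first B6 library, which leaves 1 B6 library assumed to vary like the BALB/c pair, 8 members were called, and without the second 4 were. Calls over all genes moved with them, at 44.1% of genes without the first and 22.8% without the second. Most of the iNKT2-like cells compared came from different clusters in the 2 strains. The member called also depended on the naming. With the gamma-delta list kept, Pmaip1 was not among the 9 members tested, and the 1 called was Bcl2a1b. It was lower in BALB/c (log2 change -1.32, edgeR adjusted p = 0.00958), where 244 of 9720 genes were called.

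In iNKT17-like cells 0 of 9 tested members were called by edgeR, where 4.18% of all genes were. An unadjusted p under 0.05 was reached by 1 of the 9 and by 1648 of 9367 genes. In iNKT1-like cells 0 of 10 were called, where 3.78% of all genes were. There 4 members and 1694 of 10643 genes had an unadjusted p under 0.05. In double-positive thymocyte-like cells 0 of 7 were called, where 1.15% of all genes were. Unadjusted, it was 1 member and 612 of 6596 genes. DESeq2 called 0 members in each of these 3 classes. Among all genes it called 238 of 9367 in iNKT17-like, 447 of 10643 in iNKT1-like and 51 of 6596 in double-positive thymocyte-like cells. Bcl2l11 in iNKT1-like cells came nearest, at 49.8 and 56.5 CPM in BALB/c and 32.1 and 37.2 CPM in B6 (log2 change 0.66, SE 0.15, edgeR adjusted p = 0.0634). Leaving out the first or the second B6 library gave 2 and 1 calls in iNKT17-like cells, 5 and 4 in iNKT1-like cells, and 1 and 0 in double-positive thymocyte-like cells. The share of all genes called was then 15.5% and 4.84% in iNKT17-like, 34.2% and 15.7% in iNKT1-like, and 2.13% and 0.761% in double-positive thymocyte-like cells.

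Mcl1 was higher in BALB/c in all 3 mature subsets and in double-positive thymocyte-like cells, without overlap between strains and without a call. In iNKT17-like cells it was 299 and 326 CPM in BALB/c and 240.0 and 207 CPM in B6, in iNKT2-like cells 162 and 181 CPM in BALB/c and 147 and 125 CPM in B6, and in iNKT1-like cells 282 and 295 CPM in BALB/c and 218 and 190.4 CPM in B6. The log2 changes were 0.49, 0.44 and 0.53 (edgeR adjusted p = 0.178, 0.140 and 0.130), and 0.57 in double-positive thymocyte-like cells (edgeR adjusted p = 0.624). In iNKT1-like cells it was called without either B6 library (edgeR adjusted p = 5.00e-14 without the first and 0.000182 without the second).

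Bcl2 in double-positive thymocyte-like cells rested on 1 library. It was 40.2 and 31.2 CPM in BALB/c, against 13.7 and 244 CPM in B6, so the B6 pair lay on both sides of the BALB/c pair. In the second B6 library 83 cells of 1 small cluster held 185 Bcl2 UMIs, or 880.1 CPM, and the other double-positive cluster held 26.1 CPM. The small cluster gave 105 CPM in the first BALB/c library and 72.8 CPM in the first B6 library, and its cells had 0.196 of the median UMIs of their own library. By the score, Bcl2 was higher in mature iNKT cells than in double-positive thymocytes in 4 of 4 libraries, though sums of different libraries overlapped. The log2 change was 1.95 (SE 0.34, edgeR adjusted p = 0.000228). That mature sum pools 3 subsets, which over clusters lay on both sides of double-positive thymocyte-like cells. Bcl2 was higher than there in iNKT1-like cells of 4 of 4 libraries. It was lower in iNKT2-like cells of 3 of 4 and in iNKT17-like cells of every library.

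Whether the strain difference was the same in 2 subsets was asked with the interaction of strain and class, iNKT2-like against iNKT1-like, with the library as a block. There 2 of 10 members were called, where 8.07% of all genes were. Bcl2l11 had a strain difference 1.11 lower in iNKT2-like than in iNKT1-like cells (SE 0.20, edgeR adjusted p = 0.000858): in iNKT2-like cells it was 5.80 and 7.72 CPM in BALB/c and 7.01 and 11.6 CPM in B6, while in iNKT1-like cells BALB/c was above B6 in both libraries. Bcl2a1b had a strain difference 0.35 higher in iNKT2-like cells (SE 0.11, edgeR adjusted p = 0.0491), where BALB/c had 195 and 199.8 CPM and B6 had 217 and 218 CPM, while in iNKT1-like cells BALB/c had 162 and 177 CPM and B6 had 258 and 209 CPM. The Bcl2l11 call was lost without the second B6 library (-0.68, edgeR adjusted p = 0.251), and the Bcl2a1b call without either BALB/c library or without the first B6 library. Grouping by marker score gave -1.47 for Bcl2l11 (edgeR adjusted p = 1.94e-06) and 5 members called, where 8.85% of all genes were, but 0.31 for Bcl2a1b, which lost its call (edgeR adjusted p = 0.0646). Bcl2a1b also lost it with relative log expression size factors (edgeR adjusted p = 0.0593), with DESeq2 (adjusted p = 0.324) and with all barcodes over 500 genes (0.11, edgeR adjusted p = 0.694). DESeq2 called 0 of 10 members and 384 of 12316 genes, so Bcl2l11 lost its call there too. With no replicate block edgeR again called 0 of 10 members, and 105 of 12316 genes.

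In the other lists, strain differences included BCL2 family genes outside the 10. Bcl2a1a was 57.0 and 52.5 CPM in iNKT17-like cells of BALB/c, against 11.4 and 4.58 CPM in those of B6 (log2 change 3.01, SE 0.34, edgeR adjusted p = 0.00203). It was also higher in BALB/c in iNKT2-like cells, at 6.15 and 3.70 CPM in BALB/c and 1.04 and 0.503 CPM in B6 (log2 change 3.11, edgeR adjusted p = 0.0286), and it had no UMI in iNKT0-like or double-positive thymocyte-like cells of any library. Its transcript differs from that of Bcl2a1b at 15 of 817 aligned bases, and how reads were divided between the copies in each strain was not tested. Bcl2l12, a BCL2-related gene, was lower in BALB/c in iNKT17-like cells (15.3 ± 3.41 CPM in BALB/c and 35.3 ± 0.452 CPM in B6; log2 change -1.17, edgeR adjusted p = 0.0297) and in iNKT2-like cells (-0.92, edgeR adjusted p = 0.0321).

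In iNKT2-like cells the caspase gene Casp8 (log2 change -0.52, edgeR adjusted p = 0.0317) was lower in BALB/c, as were Fas (-1.06, edgeR adjusted p = 0.0212) and the survival kinase gene Pim1 (-1.17, edgeR adjusted p = 0.0216). In all, 3 of 13 inhibitor and death receptor genes and 2 of 12 survival cytokine genes were lower there, and 1 of the last, Jak3, was higher, where 4.13% of all genes were lower and 7.64% were called. With the gamma-delta list kept in naming, 244 of 9720 genes were called in iNKT2-like cells, against 907 of 11876. In iNKT1-like cells Pim2 was 111 ± 44.3 CPM in BALB/c and 33.6 ± 2.17 CPM in B6 (SD, n = 2; log2 change 1.70, edgeR adjusted p = 0.0152), and Pim1 was higher in BALB/c too (0.69, edgeR adjusted p = 0.0264).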

How the data were processed

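Thymic iNKT cells were sorted and made into single-cell RNA libraries (10x Genomics 5' chemistry, per the labels). What the authors deposited is, for each library, a table of whole-number UMI counts by gene and barcode with no normalization. Build mm10 and Cell Ranger 7.1.0 were used per the submitters' processing notes. The file headers name 6.0.0 for 3 libraries (both BALB/c libraries and the first B6 library) and 7.1.0 for the second B6 library. No source used here says if intronic reads were counted. The default on this point changed between the major versions, which could raise long-intron genes such as Bcl2 in the second B6 library.

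Kept cells had at least 500 genes and 1000 UMIs, at most 10% of UMIs from mitochondrial genes, and no doublet mark from Scrublet (33 and 34 barcodes marked in BALB/c, 50 and 758 in B6). Cells were clustered with scanpy 1.11.5 (2000 variable genes without the members and the other apoptosis genes listed, 30 components, Leiden resolution 1.0) and clusters were named from marker lists, leaving out the gamma-delta T cell list, a choice made after seeing the data. Marker scores (mean z-score, above 0.25 and 0.25 above the next class) gave the classes for tests between classes, and 15.1% of kept cells lay within 0.05 of a limit. UMIs were summed per library and class and tested with edgeR 4.0.16 (TMM, filterByExpr, quasi-likelihood F-test, Benjamini-Hochberg over all genes) in R 4.3.3, with DESeq2 1.42.0 and limma 3.58.1 as alternatives. Normalised means given as mean ± SD beside a fold change are CPM after TMM, and other CPM values are unscaled shares of the summed UMIs. Total counts were 23124810 and 22798414 UMIs in BALB/c and 20406245 and 82904358 in B6. Shares of cells carry exact binomial intervals at 95%. On simulated counts the test recovered 100% of 200 changed genes in each of 3 comparisons. False calls were 10 among 13041 genes for the strains over all kept cells and 3 among 10703 for the strains in iNKT1-like cells. For iNKT2 over iNKT1 there were 13 among 10549. This does not measure how often changes of the size seen here would be called.

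The members and the lists were chosen with earlier results of these data known. All 10 members were named in every comparison, of each other list up to 3 genes of lowest p (some are not reported here), and for Bcl2, Bcl2l1 and Bcl2a1b the 3 most alike genes with a mean of at least 50 CPM. Libraries of a strain are taken as replicates, though nothing says that they came from separate animals. Replicate counts within a strain differed beyond sampling noise. Same-numbered libraries of the strains did not deviate together (r = -0.13 over 11257 genes). This cannot exclude that the numbers pair them, since the second B6 library also differed in its Cell Ranger version. Positions came from GENCODE vM21 on GRCm38, which matched 32158 of the 32285 genes, and promoter sequences from RefSeq on GRCm38.p6.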

Additional observations from a re-analysis of the deposited data

Results flagged for a closer look

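The strain difference (BALB/c over B6) itself differed between iNKT2-like and iNKT1-like cells for 2 members and for 8 genes named from the other lists, by an edgeR test of the interaction. The log2 difference, iNKT2-like minus iNKT1-like, was -1.11 for Bcl2l11 and 0.35 for Bcl2a1b. Among other BCL2 family genes it was -1.18 for Bbc3 and -1.45 for Bik. In the death receptor pair it was -1.19 for Fasl and -1.04 for Fas. For the kinase genes it was -1.87 for Pim1 and -1.41 for Pim2, for Il2rb it was -0.96, and for Ywhae it was -0.45. The genes from the other lists were named for their low p, so the side they fall on is not read. Over all 12316 genes tested, 478 were called with a higher strain difference in iNKT2-like cells and 516 with a lower one. Fasl and Il2rb were among the markers that named iNKT1-like cells. The main cluster of BALB/c cells was another than the main clusters of B6 cells in both classes, and the part of this in the differences was not tested.

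Bcl2 had opposite strain differences in 2 subsets, with both libraries of one strain above both of the other. BALB/c over B6 was 0.85 on the log2 scale in iNKT17-like cells, where BALB/c had 5.86 and 9.20 CPM and B6 had 1.14 and 5.598 CPM, and -0.58 in iNKT2-like cells, where BALB/c had 18.1 and 18.1 CPM and B6 had 24.1 and 33.2 CPM. The B6 values in iNKT17-like cells rest on 1 and 11 UMIs. Neither direction was steady: the iNKT17-like value was -0.71 with all barcodes over 500 genes and -0.11 with classes by marker score, and the iNKT2-like value was 0.48 with the gamma-delta list kept in naming. The difference between the 2 subsets was not tested.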

How the results depend on the processing

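Calls between classes were the steadier ones: of the single-member values for class comparisons under all alternatives, 391 kept their side of the threshold, 15 lost the call and 1 gained it, while for strain 570 kept their side, 23 lost the call, 55 gained it and 3 reversed with a call. Of those that kept their side, 11 of 391 and 42 of 570 changed sign, none of them called. Members called between iNKT17 and iNKT2 (6) fell to 2 with no replicate block, as all genes called fell from 2988 to 1425 of 9567. The other class counts of members stayed within 1.5 times. Over all kept cells (1 call, with 937 of 12878 genes) DESeq2 gave 3 calls (1747 of 12878) and all deposited barcodes 2 (975 of 12938). Equal class weights gave 0. Leaving out single libraries moved the members called and all genes called together, here and in the tests that follow. In iNKT2-like cells (1) DESeq2 gave 0, no filter on low counts 3 and leaving out libraries 0 to 8. In iNKT1-like cells (0, with 402 of 10643 genes) no filter gave 2 (1192 of 17533). The replicate block gave 1 (755 of 10643) and marker score classes 1 (378 of 9821). iNKT17-like cells (0, with 392 of 9367 genes) gave 0 in every alternative that kept all libraries. Double-positive thymocyte-like cells (0, with 76 of 6596 genes) gave 1 with no filter (311 of 13716). The interaction (2, with 994 of 12316 genes) gave 1 with relative log expression size factors (985 of 12316) and 5 with marker score classes (995 of 11241). It gave 0 with DESeq2 (384 of 12316) and 0 with no replicate block (105 of 12316). Pairing the numbers crosswise, added after seeing the data, gave 0 calls over all kept cells (788 of 12878 genes) and 0 in iNKT2-like cells (615 of 11876). In iNKT1-like cells it gave 3 (992 of 10643). With the replicate block Bcl2 over all kept cells had an adjusted p of 0.0460 and Pmaip1 of 0.108, and 264 genes were called against 937 without it. Pmaip1 over all kept cells lost its call with no filter (0.0505), and in iNKT2-like cells with DESeq2 (0.0900) and marker score classes (0.0861). Reversed values were the Bcl2a1d strain difference in iNKT2-like cells without the second B6 library (-0.28, against 1.05 without the first), and, with the gamma-delta list kept in naming, which leaves the main BALB/c cluster of iNKT2-like cells unnamed, the interactions of Bcl2 (0.78) and Bcl2a1b (-0.89). There Bcl2l11 gave -0.63 (adjusted p = 0.227). Of 10 members, 5 had the same highest class by share of cells without thinning. The causes were not tested. Depth limits Pmaip1 most, with 27 UMIs in 1 library.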

Other observations

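iNKT0-like cells, the precursors between double-positive thymocytes and the subsets, combined the highest Bcl2 of the 5 classes with high Bcl2l11. Bcl2 was 337 and 294 CPM in their BALB/c libraries and 368 and 433 CPM in their B6 libraries. Bcl2l11 was 91.6 and 77.9 CPM in BALB/c and 88.9 and 76.1 CPM in B6, so there were 3.68 and 3.78 Bcl2 UMIs per Bcl2l11 UMI in BALB/c and 4.14 and 5.69 in B6. The Bcl2a1 genes had barely appeared, with Bcl2a1d at 13.5 and 19.5 CPM in BALB/c and 8.47 and 7.87 CPM in B6. Bcl2l1 in these cells was 13.5 and 13.6 CPM in BALB/c and 23.3 and 28.0 CPM in B6, below every double-positive thymocyte-like value. These values have no test, since the classes were named from clusters and iNKT0-like cells entered no comparison.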
